A study of Danio rerio with 4 samples.

Results

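Transcript models that lay outside every reference transcript were described in 2 long-read RNA libraries of zebrafish (Danio rerio) embryos. Cuffcompare, which sets assembled transcripts against a reference annotation, gives such intergenic models the class code u, and every model with that code was taken. There were 2700 class u models in the α-amanitin pool and 2650 in the untreated pool, 5350 of the 25854 models in all. A locus (a group of overlapping models with 1 number in a library's table) was called class u only when none of its models had another class, and mixed when it also held models of other classes.

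A polyadenylated transcript with no reference counterpart can be a long non-coding RNA (lncRNA, a long transcript with no long reading frame), a protein-coding gene not yet annotated, or an unannotated end of a gene nearby. The early fish embryo lives on maternal RNA stored in the egg, until its own genome is switched on at zygotic genome activation (ZGA) and maternal RNA is cleared. Classes used below for comparison are = (the same introns as a reference transcript), j (at least 1 shared splice junction), c (contained in a reference transcript), x (exonic overlap on the opposite strand) and r (mostly repeat sequence).

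The α-amanitin pool held 15 embryos injected with 0.2 nmol of this RNA polymerase inhibitor within the first cleavages, and the untreated pool held 15 wild-type embryos. All embryos came from natural spawning of AB, TAB14 or TAB5 adults, and polyA RNA was read on the PacBio platform, per the labels. Both samples are labelled 6 hours post fertilization (hpf). The title and source name of the α-amanitin sample instead give a pre-ZGA sample and the 256-cell stage, those of the untreated sample a post-ZGA sample at epiboly, and this conflict was not resolved. There was 1 pool, sequenced as 1 library, per group, so no difference between the pools has a replicate check, and models of 1 library are not replicates. Short-read samples at 2.5 and 5.25 hpf were not analysed here.

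The α-amanitin pool held 13102 models at 9504 loci, and the untreated pool 12752 models at 9444 loci. The tables give no read number for any model, so the depth is unknown, and each structure counts once whatever its abundance. Of 28 maternal genes, 25 had a model in the α-amanitin pool and 23 in the untreated pool. Of 62 zygotic genes, 8 had a model in the α-amanitin pool and 6 in the untreated pool, so few markers of an activated genome had a model in either. The deposited expression table, whose reads are not stated, gave bambia, cyp26a1, foxh1 and wnt8a higher values in its control column. It gave nanog and pou5f3 higher values in its α-amanitin column. These are the zygotic genes that stood beside a class u only locus.

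About 1 model in 5 was intergenic with or without the inhibitor. Class u made up 20.6% of models (95% Wilson interval 19.9 to 21.3) in the α-amanitin pool and 20.8% (20.1 to 21.5) in the untreated pool, and these intervals, which cover counting error alone, overlap. The models lay at 2225 loci of the α-amanitin pool and 2207 loci of the untreated pool. Of these, 2181 (98.0%) were class u only in the α-amanitin pool and 2169 (98.3%) in the untreated pool.

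Most class u only loci held a single structure. At least 2 models were found at 297 class u only loci of the α-amanitin pool (13.6%, 12.2 to 15.1) and at 275 of the untreated pool (12.7%, 11.3 to 14.1). Among loci that named a gene and held no class u model the share was 27.6% (26.6 to 28.7) in the α-amanitin pool and 25.3% (24.3 to 26.4) in the untreated pool. Intergenic loci thus had several models less often than gene loci in each library, by intervals that do not overlap.

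The locus richest in class u models lay at or beside gsnb, a gelsolin (actin-severing) gene, in each library. Directly after gsnb and before rab14, a small GTPase of membrane traffic, the α-amanitin pool had a class u only locus of 8 models (319 to 2049 bases, median 1054). It was 1 of 2 class u only loci there, which held 14 models in all. Between the same genes the untreated pool had class u only loci of 13 models (349 to 2045 bases, median 1265) and of 8 models (329 to 2319 bases, median 751.5). The richest locus of the α-amanitin pool was a mixed one named for gsnb, with 11 class u models of 518 to 2332 bases among 13 models, the other 2 being class x. A current RefSeq gene table, of assembly GRCz12tu, lists 5 genes between gsnb and rab14, namely ttf1.5, ttf1.4, LOC110437769, ttf1.1 and ttf1.2.

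The other loci among the 5 with the most class u models in each library follow, with ties broken by file order. In the untreated pool 16 class u only loci held at least 5 models, so its loci of 5 models below were taken from among ties. The α-amanitin pool had 9 models (396 to 1931 bases) between hmgb2b, a high-mobility-group chromatin protein gene, and zgc:85866. It also had 8 models (476 to 2913 bases) between ccdc77 and morc2, an ATPase of heterochromatin silencing. After spoplb it had 7 models of similar length, 1547 to 1850 bases, with lsg1 as the next gene. The untreated pool had 5 models of 1589 to 1788 bases after spoplb, with tmem44 as the next gene, 12 models (687 to 4693 bases) between cnot11 and surf4, and 5 models (944 to 1971 bases) between si:dkeyp-2e4.6 and si:dkeyp-2e4.2. The set after spoplb covered nearly the same lengths in both libraries. Other places in these lists also held class u models in each library, with 10 (α-amanitin) and 6 (untreated) between hmgb2b and zgc:85866 and 14 (α-amanitin) and 21 (untreated) between cnot11 and surf4. The RefSeq table lists 41 genes between hmgb2b and zgc:85866. The pair cnot11 and surf4 could not be placed in order in it, so these genes may not be neighbours.

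Loci where class u models sat with other classes were rare. They numbered 44 in the α-amanitin pool, with 78 of its class u models (2.89%), and 38 in the untreated pool, with 49 (1.85%). A reference gene was named at 30 of the 44 in the α-amanitin pool and at 35 of the 38 in the untreated pool. The other models at mixed loci were all class r at 14 loci of the α-amanitin pool and 3 of the untreated pool. Class = or j models, which follow a reference gene, were present at 18 mixed loci of the α-amanitin pool and 17 of the untreated pool, and class x models, on the strand opposite to a gene, at 9 of the α-amanitin pool and 10 of the untreated pool. The longest model was class u at 22 of 44 mixed loci (50%, 35.8 to 64.2) in the α-amanitin pool and at 9 of 38 (23.7%, 13.0 to 39.2) in the untreated pool, with intervals that overlap.

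By the 1 gene name given to each locus, few genes had a mixed locus in both libraries. Of the 30 genes named at mixed loci of the α-amanitin pool and the 35 of the untreated pool, 3 were common, which is 10% of the genes of the α-amanitin pool and 8.57% of those of the untreated pool: mir128-2, a microRNA gene, zgc:171670 and znf1024, a zinc finger gene. Of all genes named by a model, 5534 were named in both libraries, 83.1% of those of the α-amanitin pool and 84.6% of those of the untreated pool. After the gsnb locus, the α-amanitin pool's mixed loci with the most class u models were 1 between zgc:174890 and tmed1b (4 of 5 models, 546 to 3120 bases), the locus of trappc13, a gene of vesicle tethering (3 of 4 models, 311 to 2073 bases), 1 between rpp25l and psmc4 (3 of 5, 518 to 1720 bases) and that of si:dkeyp-98a7.5 (3 of 9, 340 to 1180 bases). In the untreated pool they were the loci of ankrd45 (3 of 4 models, 674 to 1835 bases), aprt, which encodes an adenine salvage enzyme (3 of 5, 537 to 1148 bases), tmx2a (2 of 3, 500 and 586 bases), cinp (2 of 3, 1712 and 2370 bases) and mir128-2 (2 of 4, 351 and 378 bases). A repeat-rich locus of the untreated pool, between si:dkey-61p9.7 and pacsin2, held 86 models, of which 2 were class u. All class r models at mixed loci numbered 15 in the α-amanitin pool and 86 in the untreated pool.

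Intergenic models were shorter than class = and class j models, and longer than the other classes compared. At class u only loci the median length was 1208.5 bases (95% order-statistic interval 1167 to 1250; quartiles 685 and 1844.5) in the α-amanitin pool and 1177 bases (1141 to 1225; quartiles 657 and 1766) in the untreated pool. Class = models had medians of 1751 bases (1723 to 1779) in the α-amanitin pool and 1701 bases (1674 to 1725) in the untreated pool. The α-amanitin median exceeded the untreated one by 31.5 bases for class u and by 50 bases for class =, with intervals that overlap in each case. Other classes went both ways, with differences of 51 bases for class j, −30.5 for class c, −94.5 for class x and −24 for class r. Class j models had medians of 1686 bases in the α-amanitin pool and 1635 bases in the untreated pool. Class c models, which are parts of reference transcripts, were shorter than class u, at 878.5 bases in the α-amanitin pool and 909 bases in the untreated pool. So were class x models, at 926 bases (α-amanitin) and 1020.5 bases (untreated), and class r models, at 504.5 bases (α-amanitin) and 528.5 bases (untreated).

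The difference from class = showed at the short end. Under 500 bases were 15.2% of class u models at class u only loci in the α-amanitin pool and 16.1% in the untreated pool. Of class = models, 1.67% in the α-amanitin pool and 1.82% in the untreated pool were that short. Of class c models, 22.6% in the α-amanitin pool and 22.2% in the untreated pool were. At the long end, 121 models (4.61%) of the α-amanitin pool and 87 (3.34%) of the untreated pool reached 3000 bases, and 25 of the α-amanitin pool and 10 of the untreated pool reached 4000 bases. Class = models of at least 3000 bases also had the larger share in the α-amanitin pool, 7.01% against 5.41% in the untreated pool. The median was 1129 bases (1073 to 1186) at loci of 1 model in the α-amanitin pool and 1077.5 bases (1015 to 1129) in the untreated pool, while over all models of loci with at least 2 it was 1448.5 bases (1352 to 1532) in the α-amanitin pool and 1387 bases (1326 to 1500) in the untreated pool. At mixed loci the class u median was 1242 bases (946 to 1613; 78 models) in the α-amanitin pool and 941 bases (674 to 1202; 49 models) in the untreated pool.

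**Figure D1:**
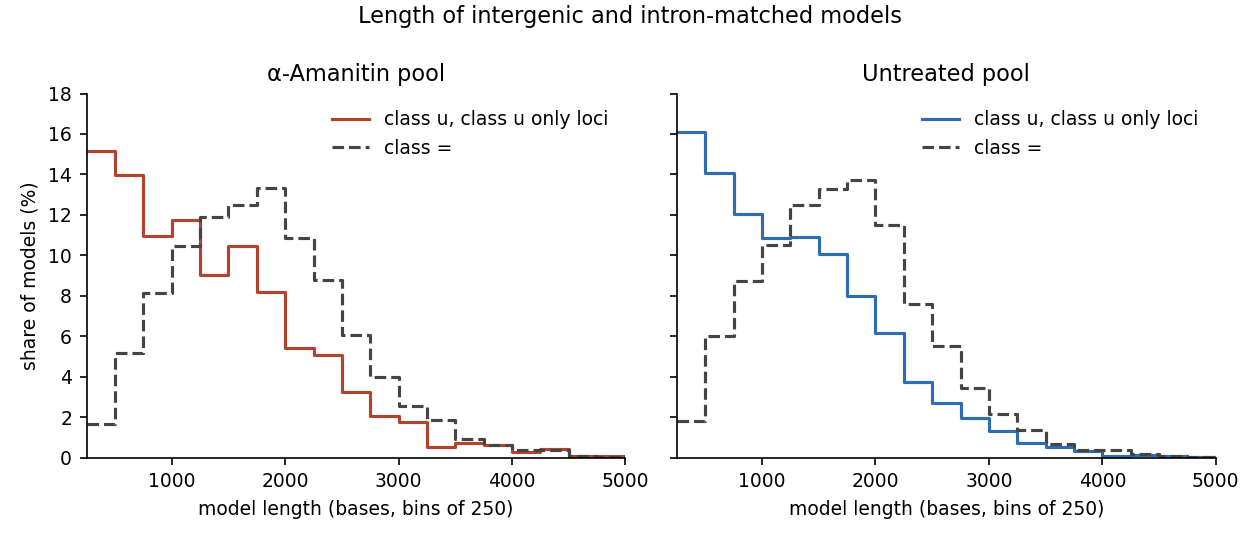
Length of class u models at class u only loci (solid) and of class = models (dashed) in the α-amanitin pool (left) and the untreated pool (right), as the share of models in bins of 250 bases; lengths above 5000 bases are not drawn. The class u curve is highest in its first bin, under 500 bases (15.2% in the α-amanitin pool, 16.1% in the untreated pool), where class = has 1.67% in the α-amanitin pool and 1.82% in the untreated pool.

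The longest class u models reached over 5000 bases in each library. In the α-amanitin pool they measured 5852 bases between cdc37 and cct2, 2 chaperone genes, 5391 bases between zgc:153372 and lyrm9, 4765 bases between si:dkeyp-46h3.2 and nsun2, 4761 bases between fam188a and nmt2, and 4692 bases between actr3 and surf4. In the untreated pool they measured 5532 bases between pabpn1 and dok6, 5482 bases between zgc:153372 and mrps23, 4896 bases between tmem177 and trim13, 4693 bases between cnot11 and surf4, and 4596 bases between tex264a and sec61a1l. Near-equal lengths stood in both lists where a bounding gene was the same. The models after zgc:153372 had 5391 bases in the α-amanitin pool and 5482 in the untreated pool, and those before surf4 had 4692 bases in the α-amanitin pool and 4693 in the untreated pool. The pairs actr3 and surf4, cnot11 and surf4, and cdc37 and cct2 could not be placed in order in the RefSeq table. After zgc:153372 the RefSeq table lists the lncRNA gene LOC108179323 and the microRNA genes dre-mir-99-1, mirlet7c-1 and mir125c.

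The tables give no coordinates, and neighbours were taken from the order of loci, which was first checked against the chromosome order of the RefSeq table. Of the genes named, 6636 of 6658 in the α-amanitin pool and 6514 of 6538 in the untreated pool were found in that table. Neighbouring named genes were on 1 chromosome in 99.0% of pairs in the α-amanitin pool and 98.9% in the untreated pool, and successive steps ran in order in 96.9% of those in the α-amanitin pool and 97.1% in the untreated pool. Locus order was therefore used as position, and before and after refer to it. Of 1439 intervals with class u in the α-amanitin pool, 1361 could be placed in that table, with both genes in order on a chromosome. In the untreated pool 1313 of 1389 could be placed. The genes of a pair that was not placed may not be neighbours.

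Class u only loci stood between many genes and often beside each other. A named locus lay directly on both sides of 936 of them (42.9%, 40.9 to 45.0) in the α-amanitin pool and of 865 (39.9%, 37.9 to 42.0) in the untreated pool. Together they filled 1439 intervals between named genes in the α-amanitin pool and 1389 in the untreated pool, and bordered on 2535 distinct genes in the α-amanitin pool and 2464 in the untreated pool. Uninterrupted runs of at least 2 class u only loci made up 455 of 1458 runs (31.2%, 28.9 to 33.6) in the α-amanitin pool and 483 of 1412 (34.2%, 31.8 to 36.7) in the untreated pool. Class u only loci were 22.9% of all loci in the α-amanitin pool and 23.0% in the untreated pool. Some would therefore stand beside each other in any order, and an excess of runs was not tested.

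The longest run of each library lay in a place that also held class u only loci in the other. The longest of the α-amanitin pool held 11 loci with 18 models of 425 to 1856 bases between znf1160, a zinc finger gene, and zgc:173693, where the untreated pool had 6 loci. Its next runs were of 9 loci between actr3, a subunit gene of the actin-nucleating Arp2/3 complex, and surf4, a cargo receptor gene of the secretory path, of 8 loci between pabpn1l and ist1, and of 7 loci each between gpatch11 and klc1b and between zgc:174710 and zgc:113135. The longest of the untreated pool held 19 loci of 1 model each between zgc:55733 and zgc:110425, and all 19 models were short, 351 to 658 bases with a median of 453. Between the same genes the α-amanitin pool had 10 loci. The RefSeq table lists 137 genes between zgc:55733 and zgc:110425 and 44 between znf1160 and zgc:173693. The pair actr3 and surf4 was not placed in it. Runs next in length included those of 8 loci between pttg1ipb and crfb4, and of 7 each between znf989 and zgc:165515 and between ap2b1 and zgc:85789.

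Intervals bounded by the same 2 genes in both libraries numbered 533, which is 37.0% of the intervals of the α-amanitin pool and 38.4% of those of the untreated pool. A class u model within 10% of the length of one from the other library was found at 303 of 823 loci (36.8%, 33.6 to 40.2) of the α-amanitin pool in these intervals, and at 296 of 807 (36.7%, 33.4 to 40.1) of the untreated pool. The plainest case was 189 intervals with a single class u model in each library. Of these pairs 56 (29.6%, 23.6 to 36.5) agreed within 10% in length, 53 (28.0%, 22.1 to 34.8) were over 50% apart, 107 were longer in the α-amanitin pool and 80 in the untreated pool. Agreement within 10% stood at 9.19% over all pairs of class u models drawn 1 from each library, and at 80.0% (2648 of 3311) for reference transcripts with 1 class = model in each library. Class = pairs share the introns of their transcript by definition, while class u pairs share only the bounding genes, so these shares are not like for like.

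**Figure D2:**
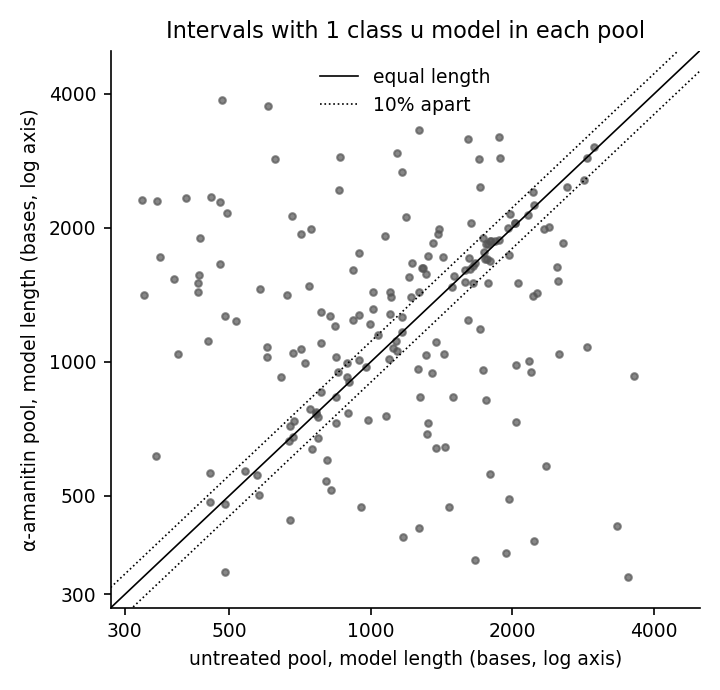
Model length in the α-amanitin pool (vertical, bases, log axis) against the untreated pool (horizontal, bases, log axis) for the 189 intervals with 1 class u model in each; each point is 1 interval. The 56 points between the dotted lines are within 10%; of all 189 intervals, 107 have the longer model in the α-amanitin pool and 80 in the untreated pool.

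The widest differences in length ran both ways. Between sod1, the copper-zinc superoxide dismutase gene, and ufm1, a ubiquitin-like modifier gene, the model had 3878 bases in the α-amanitin pool and 483 in the untreated pool. Between vps9d1 and uri1 it had 2304 bases in the α-amanitin pool and 326 in the untreated pool. Between kansl2, a gene of a histone acetyltransferase complex, and sdf4 it had 329 bases in the α-amanitin pool and 3518 in the untreated pool. Between ankrd12 and rnf126 it had 427 bases in the α-amanitin pool and 3342 in the untreated pool. With no coordinates, whether 2 models of an interval overlap cannot be told from these tables.

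A gene named in 1 library alone cuts an interval that the other library leaves whole, so intervals were also bounded by the 5534 genes named in both libraries, an alternative chosen after seeing the data. By this count 5392 pairs of such genes followed each other in both libraries. Class u only loci lay between 974 of these pairs (18.1%, 17.1 to 19.1) in both libraries, between 367 (6.81%, 6.16 to 7.51) in the α-amanitin pool alone, and between 332 (6.16%, 5.55 to 6.83) in the untreated pool alone. The shared pairs were 72.6% of the 1341 with class u in the α-amanitin pool and 74.6% of the 1306 in the untreated pool. Most places (pairs of genes) with a class u only locus in 1 library thus had one in the other. A place can hold many listed genes, so a shared place does not show that the same model recurs. In shared places a class u model of matching length, by the tolerance used above, was found at 39.3% of loci (37.0 to 41.6) in the α-amanitin pool. In the untreated pool it was found at 39.3% (37.0 to 41.6).

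Places found in 1 library held fewer and shorter models. A single class u only locus lay in 321 of the 367 pairs (87.5%) of the α-amanitin pool alone and in 275 of the 332 (82.8%) of the untreated pool alone. In the 974 shared pairs this was so for 56.6% in the α-amanitin pool and 55.6% in the untreated pool. Median lengths in places of 1 library were 1031 bases (929 to 1166) for the α-amanitin pool and 987.5 bases (880 to 1095) for the untreated pool, and in shared places 1244 bases (1202 to 1297) in the α-amanitin pool and 1216 bases (1167 to 1265) in the untreated pool. A pair with more class u only loci has more chances to count as shared. The number of genes between was not held equal.

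Counts of models per place were mostly small, which leaves little room for a wide gap. The 974 shared pairs held 2129 class u models in the α-amanitin pool and 2121 in the untreated pool. Of 1673 pairs with class u in either library, 657 had more models in the α-amanitin pool, 605 more in the untreated pool and 411 the same number, and 11 differed by at least 5 models. The widest gap with more in the α-amanitin pool was between znf1160 and zgc:173693, with 18 models at 11 loci against 6 models at 6 loci in the untreated pool. It was followed by eif3k to preb (α-amanitin 8 models, untreated 3), prkacbb to thoc1 (α-amanitin 7, untreated 2), accs to psmd13 (α-amanitin 4, untreated 0) and hmgb2b to zgc:85866 (α-amanitin 10, untreated 6). Genes listed in the table between znf1160 and zgc:173693 included the zinc finger genes znf1159, znf1169, znf1154, znf1179 and znf1184. The pair eif3k and preb was not placed in that table.

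More models in the untreated pool were found between zgc:55733 and zgc:110425 (α-amanitin 10 models, untreated 19), cnot11 and surf4 (α-amanitin 14, untreated 21), gsnb and rab14 (α-amanitin 14, untreated 21), and mitd1 and zgc:171776 (α-amanitin 11, untreated 18). Short models between zgc:55733 and zgc:110425 were also present with the inhibitor. Models of that place had a median of 437.5 bases (332 to 1550) in the α-amanitin pool and 453 (351 to 658) in the untreated pool. Longest models were of like length in some places. Between pttg1ipb and vwa8 the longest models had 3874 bases in the α-amanitin pool and 3878 in the untreated pool, and between ttc27 and zgc:65997 they had 3029 bases in each. The RefSeq table lists 90 genes between pttg1ipb and vwa8 and 72 between ttc27 and zgc:65997. Like length there does not show that the models are the same. Counts were closer in these places, with 15 models (α-amanitin) and 12 (untreated) between pttg1ipb and vwa8 and 9 (α-amanitin) and 8 (untreated) between ttc27 and zgc:65997. They were also close between cdk11b and pcbp2 (α-amanitin 10, untreated 8) and between hvcn1 and anxa3b (α-amanitin 8, untreated 10). The pairs cnot11 and surf4 and cdk11b and pcbp2 were not placed in the RefSeq table.

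**Figure D3:**
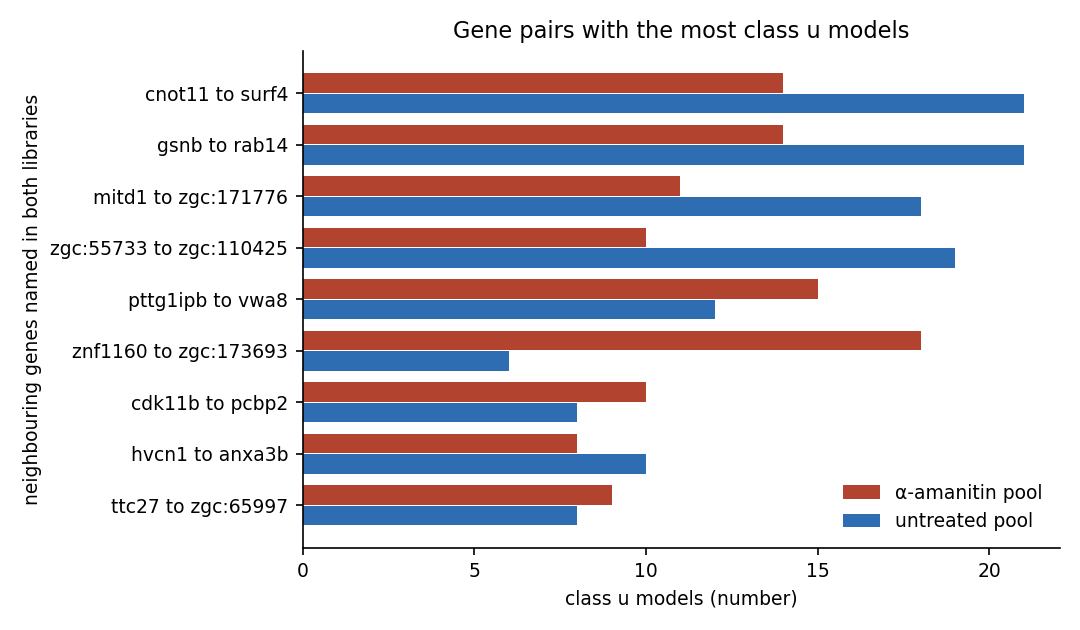
Number of class u models at class u only loci between neighbouring genes named in both libraries, for 9 of the pairs with the most models in all; the upper bar of each pair is the α-amanitin pool and the lower bar the untreated pool. The α-amanitin pool has 18 models and the untreated pool 6 between znf1160 and zgc:173693, and in each of the first 2 pairs the α-amanitin pool has 14 and the untreated pool 21.

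What the current RefSeq table lists at these places was counted next. All 7813 reference transcripts named in the long-read tables carried NM or NR identifiers, the curated RefSeq kind, and none the predicted XM or XR kind. No model could therefore carry the name of a predicted transcript. Between the 2 neighbours, the table listed at least 1 gene in 1335 of 1361 intervals with class u that could be placed (98.1%, 97.2 to 98.7) in the α-amanitin pool, and in 1291 of 1313 (98.3%, 97.5 to 98.9) in the untreated pool. Intervals without class u held a gene in 67.7% of cases (66.4 to 69.0) in the α-amanitin pool and 68.4% (67.1 to 69.7) in the untreated pool. The median number of genes between was 6 with and 1 without class u in the α-amanitin pool, and 7 with and 1.5 without class u in the untreated pool.

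Intervals with class u mostly held a gene with predicted transcripts alone, in 95.1% of cases (93.8 to 96.1) in the α-amanitin pool and 94.8% (93.5 to 95.9) in the untreated pool. Of intervals without class u, 53.4% in the α-amanitin pool and 53.9% in the untreated pool held one. A lncRNA gene was listed in 66.3% (63.7 to 68.7) of class u intervals of the α-amanitin pool and 67.8% (65.2 to 70.3) of those of the untreated pool. Without class u the share was 36.6% in the α-amanitin pool and 36.8% in the untreated pool. An interval with more genes has more chances to hold any kind of gene. The share of intervals with class u itself grew with the number of genes listed between. In the α-amanitin pool it was 1.59% for no gene, 10.1% for 1, 26.9% for 3 to 5 and 54.1% for 11 to 20. In the untreated pool it was 1.40% for no gene, 9.88% for 1, 24.9% for 3 to 5 and 51.4% for 11 to 20.

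Intervals with exactly 1 listed gene hold that number equal. Where the gene was protein-coding with XM transcripts alone, 78 of 322 intervals (24.2%, 19.9 to 29.2) held a class u only locus in the α-amanitin pool and 72 of 320 (22.5%, 18.3 to 27.4) in the untreated pool. Where it was protein-coding with NM transcripts, 18 of 467 (3.85%, 2.45 to 6.01) did in the α-amanitin pool and 17 of 467 (3.64%, 2.29 to 5.75) in the untreated pool. Where it was a lncRNA gene with XR transcripts alone, 5 of 191 (2.62%, 1.12 to 5.98) did in the α-amanitin pool and 8 of 177 (4.52%, 2.31 to 8.66) in the untreated pool. Predicted protein-coding genes thus had the largest of these 3 shares in each library, with intervals clear of the others. Of the 1-gene intervals with class u, 76.5% (67.4 to 83.6) in the α-amanitin pool and 72.7% (63.2 to 80.5) in the untreated pool held such a gene. Of those without class u, 27.0% in the α-amanitin pool and 27.5% in the untreated pool did. The contrast with NM genes is partly set in advance by the naming. An NM gene whose model was named generally bounds an interval and so does not lie within one. A model at a gene whose transcripts in the authors' reference were all predicted could not take its name. Kinds here are those of the current table, which may differ from that reference. How far naming accounts for the contrast was not tested.

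**Figure D4:**
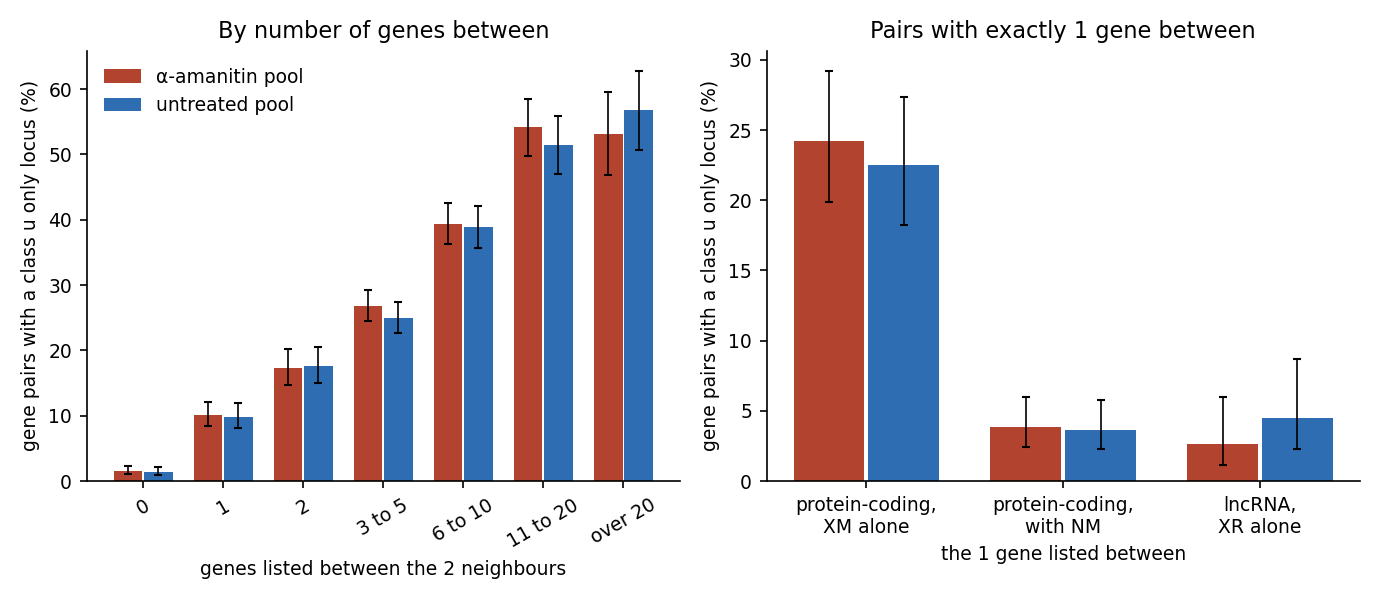
Share of pairs of neighbouring named genes with a class u only locus between them (percent, 95% Wilson intervals as bars), by the number of genes that the RefSeq table lists between them (left) and, for exactly 1 gene, by its kind (right); red is the α-amanitin pool and blue the untreated pool. With no gene between, the share is 1.59% in the α-amanitin pool and 1.40% in the untreated pool, and with 11 to 20 genes 54.1% (α-amanitin) and 51.4% (untreated); predicted protein-coding genes reach 24.2% (α-amanitin) and 22.5% (untreated).

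The 1-gene intervals with a single class u only locus numbered 84 in the α-amanitin pool and 85 in the untreated pool, and in 32 of them the neighbours and the gene between were the same in both libraries. Of these genes 26 were protein-coding with XM transcripts alone, 4 were protein-coding with NM transcripts and 2 were lncRNA genes. The longest models agreed within 10% in 15 of the 32 (46.9%). Near-equal examples were the places of stag1b, a cohesin subunit gene (α-amanitin 1664 bases, untreated 1661), srp72, a signal recognition particle gene (α-amanitin 2360, untreated 2358), dis3, an exosome ribonuclease gene (α-amanitin 3246, untreated 3291), and tox4a (α-amanitin 3061, untreated 3150). Far apart were those of ireb2, an iron regulatory protein gene (α-amanitin 3750 bases, untreated 605), clip1a, a microtubule-binding protein gene (α-amanitin 2294, untreated 352), and relb, an NF-κB subunit gene (α-amanitin 395, untreated 2224). These examples were chosen after their values were seen, and the table places the gene between the neighbours without showing that the model belongs to it.

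Class u only loci were next looked for beside genes with a known place in the egg or in the activated embryo. Of the genes with a model, 8 of 25 maternal genes (32%) had such a locus as nearest neighbour in the α-amanitin pool and 8 of 23 (34.8%) in the untreated pool, while of all named genes 38.1% in the α-amanitin pool and 37.7% in the untreated pool did. Of the zygotic genes it was 4 of 8 in the α-amanitin pool and 5 of 6 in the untreated pool, counts too small to set against those shares. Of 12 genes listed for their abundance in most cells, 11 had a model, and 2 (actb2 and rps6) stood beside a class u only locus in the α-amanitin pool, of 1002 and 814 bases, against 0 in the untreated pool.

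Several maternal genes had class u models beside them in both libraries, some of like length. After btg4, whose product recruits a deadenylase to maternal mRNA, the models had 1866 and 1891 bases in the α-amanitin pool and 1839 in the untreated pool. After gdf9, an oocyte growth factor gene, they had 1688 and 2040 bases in the α-amanitin pool and 1802 in the untreated pool. Beside ddx4, the vasa helicase gene of germ cells, a model of 1887 bases stood after the gene in each library, with another of 1460 bases before it in the α-amanitin pool and of 1592 bases after it in the untreated pool. Before bmp15, another oocyte growth factor gene, the model had 1401 bases in the α-amanitin pool and 1220 in the untreated pool. Before nasp, a histone chaperone gene, it had 2889 bases in the α-amanitin pool and 859 in the untreated pool, and after mos, the kinase gene of oocyte maturation, 395 bases in the α-amanitin pool and 2224 in the untreated pool. Before h1m, the maternal linker histone gene, 3 models of 422 to 2139 bases stood in the α-amanitin pool and 3 of 364 to 2072 bases in the untreated pool. The gene before these models was ptmab, and the pair was not placed in the RefSeq table. Listed in 1 library alone, nanos3, a germ-cell translational repressor gene, was followed by a model of 1412 bases (α-amanitin), and ca15b, a carbonic anhydrase gene, by 3 models of 300 to 3191 bases (untreated). A gene without a model in a library cannot be listed there. Absence of these models from the other pool is therefore not shown.

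Among the zygotic genes, foxh1, a transcription factor gene of Nodal signalling, had 2 class u models before fkbp10b in each library, of 513 and 3947 bases in the α-amanitin pool and of 545 and 2847 bases in the untreated pool. After bambia, a gene of a decoy receptor of BMP, there was a model of 1854 bases in the α-amanitin pool and 2 models of 1775 and 2343 bases in the untreated pool. Before nanog, a factor gene of genome activation, the model had 1215 bases in the α-amanitin pool and 1694 in the untreated pool. The gene before that model was pdcd6 in the α-amanitin pool and fen1 in the untreated pool. The pair fen1 and nanog was not placed in the RefSeq table. A model of 2116 bases after cyp26a1, which encodes a retinoic acid-degrading enzyme, was listed in the α-amanitin pool alone. Models before wnt8a (1654 bases), a ligand gene, and before pou5f3 (972 bases), another activating factor gene, were listed in the untreated pool alone. As for the maternal genes, this does not show that these models were absent from the other pool. Messages of nanog, pou5f3 and foxh1 are also laid down in the egg, and whether the model next to a gene follows it in time was not tested.

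The deposited expression table gives 1 value per transcript in an α-amanitin column and a control column, and the reads behind those columns are not stated, so the neighbouring genes could be read only as a contrast of these columns. Its own PacBio transcripts follow another numbering and could not be joined to the class u loci. Gene values below sum RefSeq transcripts alone. The 16639 PacBio transcripts, of 32575 in all, were left out, so any TPM they hold for a gene is missing from its sum. Genes beside class u only loci were more often higher than lower in the α-amanitin column. They were grouped as genes that bordered such a locus in the α-amanitin pool alone, in both libraries or in the untreated pool alone. This sorts genes and not loci, since a gene named in 1 library alone can bound a place with class u in both. At least 2-fold higher were 413 of 1042 genes (39.6%) of the α-amanitin pool alone and 613 of 1449 (42.3%) of both libraries. So were 392 of 980 (40%) of the untreated pool alone, with a background of 25.7% over the 14792 genes of the table. At least 2-fold lower were 198 genes (19.0%) of the α-amanitin pool alone, 260 (17.9%) of both and 184 (18.8%) of the untreated pool alone, against a background of 22.5%. Median log2 ratios of (TPM + 1), α-amanitin over control, were 0.46 (0.32 to 0.60) for the α-amanitin pool alone, 0.61 (0.50 to 0.73) for both, 0.52 (0.41 to 0.67) for the untreated pool alone and 0 over the table.

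Genes that bordered class u only loci in the untreated pool alone therefore did not stand lower than those that did so in the α-amanitin pool alone. Loci seen in 1 library alone were not compared in this way. These medians depended on the scaling. The median over genes of at least 1 TPM in both columns was 0.49, and after its removal the medians were −0.02 for the α-amanitin pool alone, 0.13 for both, 0.03 for the untreated pool alone and −0.49 for the whole table. At least 2-fold higher were then 30.5% of the genes of the α-amanitin pool alone, 33.5% of those of both and 29.8% of those of the untreated pool alone, with 18.7% over the table. At least 2-fold lower were 26.4% for the α-amanitin pool alone, 24.4% for both and 25.2% for the untreated pool alone, with 30.5% over the table. The background also holds genes with no expression in either column, while every neighbour was named by a long-read model. Named genes away from class u only loci were not counted apart, so whether the excess is particular to neighbours was not tested. Fewer cells of a type and less RNA per cell cannot be told apart in such pools.

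Genes bounding the places with the most class u models varied widely in level, given here as TPM summed over RefSeq transcripts alone, which is per length. Higher in the α-amanitin column were zgc:171776, with 331 TPM against 33.8 in the control column, and surf4, with 31.7 against 2.81 in the control column. So was the maternal gene btg4, with 911 against 18.3 in the control column. Lower in it were zgc:110425, with 6.02 TPM against 170 in the control column, crfb4, with 4.92 against 32.3 in the control column, and zgc:173693, with 2.87 against 16.9 in the control column. For ttc27 the α-amanitin column held 0.000613 TPM and the control column 18.3. Whether PacBio transcripts of the same gene held TPM where such a sum was near 0 was not tested. At the ends of the gsnb cluster, gsnb had 21.8 TPM in the α-amanitin column and 11.4 in the control column, and rab14 had 44.9 in the α-amanitin column and 46.1 in the control column. Near equal were hmgb2b, with 501 TPM in the α-amanitin column and 506 in the control column, and actr3, with 150 in the α-amanitin column and 128 in the control column.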

How the data were processed

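Transcript models of 2 long-read libraries, 1 table each, were used. The authors assembled long reads with IsoSeq, mapped them to GRCz10 with GMAP and annotated them with Cuffcompare, per the series description; versions are not given in the sources used here. The submitters' processing notes also name bcl2fastq 1.8.3 and kallisto. The deposited tables give each model's class and length in bases. FPKM and coverage were 0 for every model and not used. The deposited expression table holds log2(TPM + 1) values, a unit read from the values, since the back-transformed TPM sum to 1000000 in each column; the authors' quantifier settings are not stated.

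Class codes, locus numbers and lengths were counted with Python 3.11.15 (pandas 2.3.3, numpy 2.4.6, scipy 1.17.1), and plots were made with matplotlib 3.10.9; the counting was tested on simulated tables. A locus was named when any of its models carried a reference gene, and an interval ran from 1 named locus to the next. Shares have Wilson and medians order-statistic 95% intervals, covering counting error only. RefSeq transcripts of a symbol were summed in TPM, without the PacBio transcripts, and ratios used a pseudocount of 1 TPM and a threshold of 2-fold. The RefSeq table (assembly GRCz12tu) served for names, kinds and order of genes; "curated" means NM or NR identifiers. With 1 library per group no test was made.

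Loci and genes named in the text are, per library, the 5 with the most class u models, the 5 longest models, the 5 longest runs and the 5 mixed loci with the most class u models; over both, 9 of the 10 places with the most models and the 5 with the largest difference each way; and listed maternal, zygotic or abundant genes beside a class u only locus. Ties were broken by file order, and the lists of mixed loci are also cut within ties. Members and lists were chosen with earlier results of these data known. Where the text ranks places by genes named in both libraries, that choice was made after seeing the data, and a few further examples are marked as such. A place that these rules name is not reported here.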

Additional observations from a re-analysis of the deposited data

How the results depend on the processing

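Over 16 alternatives for 32 results, 132 values were recomputed; 70 moved by less than their counting interval or by under 1.5 times, 61 moved by more and 1 changed sign. With a minimum of 500 bases, the class u share was 19.4% (α-amanitin) and 19.6% (untreated), the median length 1412 (α-amanitin) and 1355 bases (untreated), the share of class u only loci with a named locus on both sides 49.1% (α-amanitin) and 45.6% (untreated), the shared share of intervals 34.5% (α-amanitin), the share of loci with a length match 40.6% (α-amanitin) and 40.3% (untreated), and the share of intervals with a listed gene 98.8% (α-amanitin). With a minimum of 1000 bases, the models numbered 1617 (α-amanitin) and 1526 (untreated), shares of 17.8% and 17.6%, at 1333 (α-amanitin) and 1270 (untreated) class u only loci, 98.7% and 99.1% of loci with class u, and at 17 (α-amanitin) and 11 (untreated) mixed loci. The median was then 1705 (α-amanitin) and 1660 bases (untreated), the share with named loci on both sides 56.6% (α-amanitin) and 52.9% (untreated), the shared intervals 281, or 28.2% (α-amanitin) and 30.3% (untreated), and the length match 51.4% (α-amanitin) and 49.7% (untreated).

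With the longest model of each locus alone, class u made up 23.2% (α-amanitin) and 23.1% (untreated), and the length match fell to 32.4% (α-amanitin) and 32.1% (untreated) of loci. Class u and r together made up 21.9% (α-amanitin) and 23.1% (untreated), and without classes e, p, r and s in the total class u made up 21.4% (α-amanitin) and 21.8% (untreated). Naming loci by class =, c or j alone gave 36.5% (α-amanitin) and 32.8% (untreated) with named loci on both sides. A length tolerance of 5% gave a match at 25.8% (α-amanitin) and 26.1% (untreated) of loci, and one of 20% at 50.1% (α-amanitin) and 49.7% (untreated). The shared share of intervals was 77.1% (α-amanitin) and 79.0% (untreated) under a looser rule. By it, at least 1 of the 2 neighbours had to border an interval with class u in the other library, on either side of the gene. With neighbours named in both libraries, chosen after seeing the data, the 974 shared intervals were 71.6% of 1361 (α-amanitin) and 73.3% of 1328 (untreated), counting also intervals whose bounding genes do not follow each other in the other library, and a gene was listed in 98.9% (α-amanitin). Where neighbours were at most 5 genes apart a gene was listed in 95.8% (α-amanitin) and 96.2% (untreated). Leaving out the loci around gsnb, also chosen after seeing the data, moved none of the results recomputed without them beyond those limits.

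For neighbouring genes, the median log2 ratio with at least 1 TPM in either column was 0.64 beside loci of the α-amanitin pool alone and 0.71 beside those of the untreated pool alone. Centred on the median it was −0.0249, a change of sign, for the α-amanitin pool alone, 0.13 for both and 0.0328 for the untreated pool alone. At 4-fold, 221 genes were higher and 114 lower for the α-amanitin pool alone, 368 and 134 for both, and 222 and 98 for the untreated pool alone. Why values moved was not tested. Minimum lengths leave fewer models by construction. No paired analysis was possible because there was 1 library per group. Depth is unknown, so how many places found in 1 library alone were missed in the other for few reads cannot be told from these tables.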

Other observations

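MicroRNA genes were listed more often where class u was present. The RefSeq table listed at least 1 between the neighbours in 77 intervals with class u (5.66%, 4.55 to 7.01) in the α-amanitin pool and in 81 (6.17%, 4.99 to 7.60) in the untreated pool. Without class u the share was 2.84% (2.41 to 3.33) in the α-amanitin pool and 2.77% (2.35 to 3.27) in the untreated pool. Of these intervals, 28 were the same in both libraries, and 8 in each library had 5 or fewer genes between the neighbours, and the number of genes between was not held equal. The model of 5391 bases (α-amanitin) and that of 5482 bases (untreated) after zgc:153372 lay in such intervals.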
